A study of Bos taurus with 48 samples.

Results

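The genes described here were found in both layers of bovine cumulus cells and in a minority of the oocytes those cells surrounded. A member had more than 0.5 FPKM (fragments per kilobase of transcript, scaled to the mapped fragments of the library) in at least 8 of 16 inner and at least 8 of 16 outer cumulus libraries. It also had more than 0.5 FPKM in fewer than 8 of 16 oocytes and a mean of at least 20 FPKM in the outer cumulus cells. Of 12428 genes found in at least 1 sample type, 167 met these conditions. The choice left out 7 identifiers by name, among them INHA, INHBA, FOS and MT1A, and 3 of the 7 met the other conditions. The members were chosen by their FPKM in all 3 sample types, so differences of the members between sample types are given as a description only.

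The study profiled 16 cumulus-oocyte complexes (COCs) taken fresh from ovaries of Bos taurus cows. From each COC the outer cumulus cells (outerCC), the inner cumulus cells next to the zona pellucida (innerCC) and the oocyte were separated, which gave 48 libraries. The animals carried no allele and received no agent named in the labels, and the COCs were neither matured nor treated in culture. Each innerCC or outerCC library pooled the cells of a layer from 1 COC, so fewer cells in a library and less RNA per cell cannot be told apart. The labels do not say which COCs came from the same cow, and p-values therefore measure only the spread between these COCs.

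Cumulus cells are granulosa cells that stay around the oocyte when the antral follicle forms. They import glucose and amino acids, break down glucose for the oocyte, respond to gonadotropins, make steroids, and lay down the matrix that expands before ovulation. The oocyte in turn secretes growth differentiation factor 9 (GDF9) and bone morphogenetic protein 15 (BMP15), which act on the cumulus cells. The ligand Indian hedgehog, the collagen chaperone SERPINH1 and the cholesterol side-chain cleavage enzyme CYP11A1 are typical products of somatic cells of the follicle.

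The members were seen in nearly every outerCC library: between 164 and 167 of them passed 0.5 FPKM in each. Their summed level in outerCC ranged from 4084 FPKM in COC 181 to 20058 FPKM in COC 187. In innerCC the libraries of COCs 185 to 192 held 152 to 167 members above 0.5 FPKM and those of COCs 176 to 184 held 9 to 62. The innerCC libraries of COCs 176 to 184 were poor in genes of every kind, with 648 to 2639 genes above 0.5 FPKM against 5876 to 10295 in COCs 185 to 192. These sets of 8 COCs each were told apart here by their innerCC libraries and are not groups that the labels give. Whether they follow the study's collection batches is not known from the sources used here. The levels of members in innerCC are therefore given for COCs 185 to 192.

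**Figure D1:**
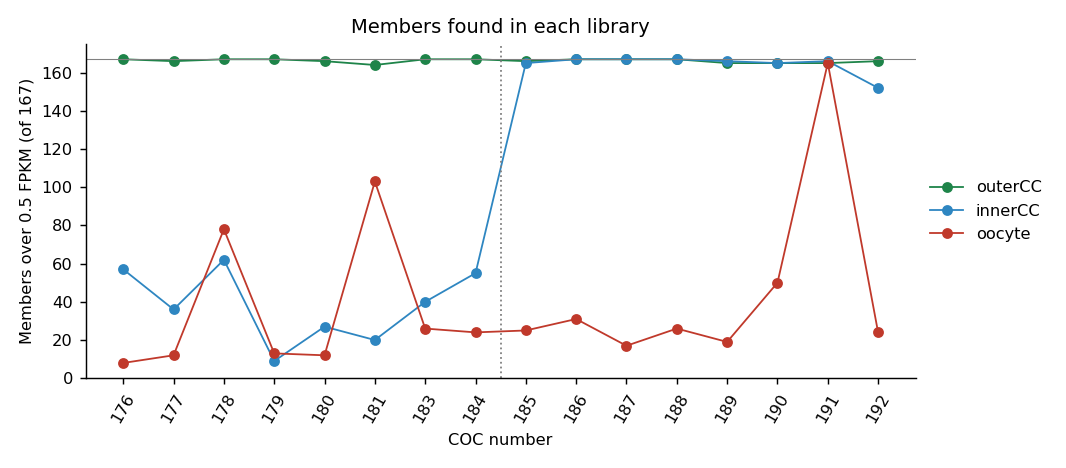
Number of the 167 members above 0.5 FPKM (vertical axis) in each library, by COC number (horizontal axis), for outerCC, innerCC and oocyte. The dotted line separates COCs 176 to 184 from 185 to 192. OuterCC stayed between 164 and 167 throughout, innerCC lay at 9 to 62 on the left and at 152 to 167 on the right, and oocyte 191 reached 165.

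The members were not absent from the oocytes. Each of the 167 passed 0.5 FPKM in 1 to 7 oocytes, and none was listed at 0 in all 16. In 13 oocytes 8 to 50 members passed 0.5 FPKM, against 78 in oocyte 178, 103 in oocyte 181 and 165 in oocyte 191. Oocyte 191 held the highest oocyte level of 141 members, and oocyte 181 that of 13. Without oocytes 178, 181 and 191, 58 members passed 0.5 FPKM in no oocyte, among them IHH, APOE, PLOD1 and IGFBP4. Of the members, 11 were listed at 0 in all 13 remaining oocytes.

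The oocyte of COC 191 carried the members at a nearly constant share of their level in its own outerCC. The median share was 10.1% over 165 members, with quartiles at 8.28% and 12.7%. Across members the log2 levels in both libraries had a Pearson r of 0.883, a description over genes that share the same pair of libraries. For other genes of both layers found in fewer than 8 oocytes the median share was 13.6% (478 genes). Oocyte 181 had a median of 4.85% (quartiles 1.51% and 10.3%) and oocyte 178 a median of 1.05% (quartiles 0.270% and 2.30%).

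Markers of granulosa cells were highest in oocytes 191 and 181. The sum of 6 granulosa markers (INHA, INHBA, INHBB, NR5A1, GATA4 and CYP19A1) was 163 FPKM in oocyte 191 and 23.1 FPKM in oocyte 181, against 0 to 5.28 FPKM in the other 14, among them oocyte 178 with 5.21 FPKM. INHA, the inhibin alpha subunit, was at 109 FPKM in oocyte 191 and at 1281 FPKM in the outerCC of the same COC. In the other direction, the sum of 11 oocyte markers was 399 FPKM in outerCC 191 and 79.3 FPKM in outerCC 190, against 0.315 to 2.84 FPKM in the other 14. GDF9 stood at 186 FPKM in outerCC 191. Among the innerCC of COCs 185 to 192, that of COC 190 held 197 FPKM of oocyte markers (9 of 11 above 0.5 FPKM) and 19.4 FPKM of leukocyte markers. The other 7 held 0.664 to 28.3 FPKM of oocyte markers. Oocyte 190 itself held 19.3 FPKM of leukocyte markers, which were found in every oocyte. The part these shared transcripts had in the members' oocyte values was not tested. Oocyte markers summed to 1012 to 2300 FPKM in the oocytes.

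**Figure D2:**
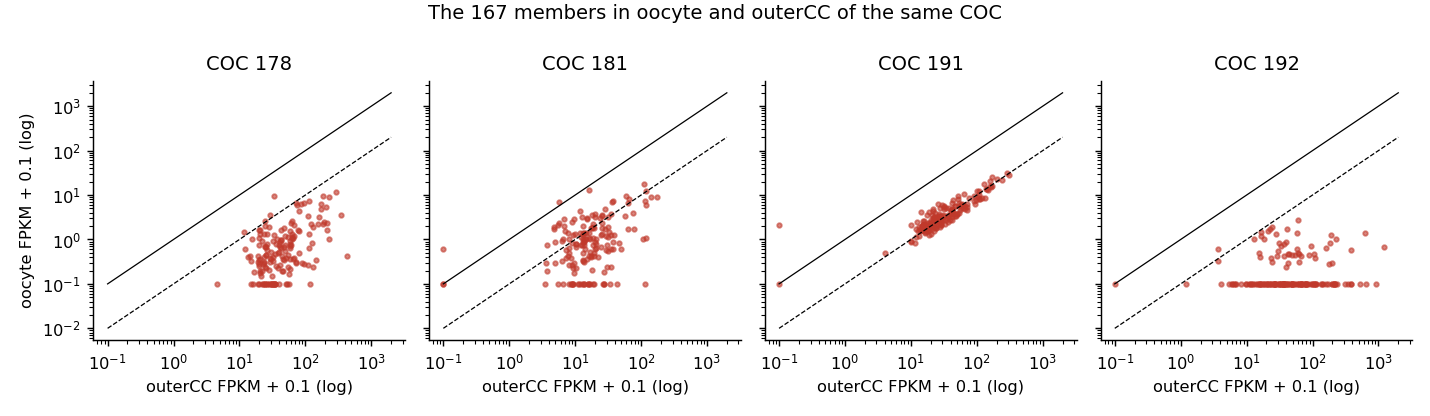
Level of each of the 167 members in the oocyte (vertical axis) against the outerCC of the same COC (horizontal axis), both as FPKM + 0.1 on log axes, for COCs 178, 181, 191 and 192. The solid line marks equal levels and the dashed line an oocyte level of 10% of the outerCC. In COC 191 the points follow the dashed line (median 10.1%), whereas in COC 192 the median share was 0%.

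Markers of other cell types were summed in the outerCC as well. The endothelial markers (3 matched) summed to 0.0759 to 3.03 FPKM and the leukocyte markers (2 matched) to 0 to 1.60 FPKM, apart from 6.55 FPKM in COC 190. The theca markers FBLN5 and APOD summed to 0 to 4.15 FPKM, apart from 17.5 FPKM in COC 192. The fibroblast markers COL1A1, COL1A2, LUM and PDGFRA summed to 7.40 to 89.3 FPKM, highest in COC 177, with 81.8 FPKM in COC 192. The oocytes held these markers too. Their theca markers summed to 13.3 to 38.0 FPKM, endothelial markers to 12.9 to 34.4 FPKM and leukocyte markers to 4.66 to 19.3 FPKM. Every matched theca, endothelial and leukocyte marker was lower in outerCC than in the oocyte (limma, adjusted p under 0.01). Taken alone, these 3 sums therefore do not tell such cells from oocyte transcripts. In COC 192 the outerCC held 17.5 FPKM of theca markers and 2.48 FPKM of oocyte markers. The oocyte of that COC held 13.7 FPKM of theca markers and 1690 FPKM of oocyte markers. The source of the theca markers in that outerCC was not tested. No erythroid marker on the list could be matched.

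The threshold on level cut through a continuous range. Just inside it were ENSBTAG00000031941 with a mean outerCC level of 20.06 FPKM, the adhesion molecule MCAM with 20.14 FPKM and the G-protein regulator RGS17 with 20.26 FPKM. Just outside were ENSBTAG00000048077 with 19.97 FPKM, ENSBTAG00000015794 with 19.95 FPKM and ENSBTAG00000018704 with 19.83 FPKM. Without any condition on level, 645 genes met the rule.

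OuterCC exceeded the oocyte for all 167 members (limma, adjusted p under 0.01), a contrast the rule itself used. Of all 12428 genes 34.3% were higher in outerCC and 43.4% lower. After scaling each library to its 75th percentile these shares were 45.4% and 34.2%, and the median difference over all genes went from -0.25 to 0.31 on the log2 scale. The median log2 difference of the members was 4.66 as deposited. The ranges of outerCC and oocyte did not overlap for 137 members, against 10.5% of the genes found in outerCC. Without oocytes 178, 181 and 191 they did not overlap for 161 members. The share over all genes was not computed for that case, so the change is not read as a result about the members.

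Steroid production was represented by CYP11A1, HSD3B, APOE and GATA6. CYP11A1, which opens steroid synthesis by cutting the cholesterol side chain, had a lowest, median and highest outerCC level of 20.5, 158 and 647 FPKM. Its innerCC levels were 24.5, 79.8 and 225 FPKM in the same order, and its oocyte levels had a median of 0.0818 FPKM and a maximum of 17.2 FPKM in oocyte 181. Outer and oocyte ranges of CYP11A1 did not overlap. HSD3B, the dehydrogenase that yields progesterone, had 12.4, 74.2 and 174 FPKM in outerCC, while its highest oocyte (COC 191) reached 13.8 FPKM and so overlapped the lowest outerCC. APOE, a carrier of cholesterol, had 25.6, 112 and 299 FPKM in outerCC and at most 7.87 FPKM in an oocyte. GATA6, a transcription factor of granulosa cells, had 8.86, 29.1 and 54.5 FPKM in outerCC. The lowest outerCC of the first 3 of these genes was COC 180.

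Genes of each list were matched by symbols from the study's supplementary tables, some of which list genes specific to oocytes or cumulus cells. The matched genes may therefore differ between outerCC and oocyte more often than all genes. Of 37 steroid and cholesterol genes listed, 14 were matched, and 12 were higher and 2 lower in outerCC than in the oocyte. Among the 10 that were not members, 8 were higher. CYP19A1, the aromatase that makes estradiol, was higher by 2.65 ± 0.29 (log2, SE; limma, Benjamini-Hochberg adjusted p = 1.81e-10), with 0.437, 5.37 and 37.2 FPKM in outerCC. GATA4 was higher by 3.51 ± 0.20 and NR5A1, the nuclear receptor that drives steroid enzymes, by 2.81 ± 0.22. NR0B1, a repressor of that receptor, was lower (-3.42 ± 0.25), with an oocyte median of 13.2 FPKM. Over all tested genes of this list the log2 difference had a median of 2.73, against -0.25 over all genes.

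Collagen modification gave 6 members, from chaperone to cross-link. SERPINH1, which escorts procollagen out of the endoplasmic reticulum, had 31.8, 144 and 505 FPKM in outerCC, 24.5, 100 and 186 FPKM in innerCC, and at most 13.3 FPKM in an oocyte. The lysyl hydroxylase PLOD1 had 11.8, 91.7 and 328 FPKM in outerCC and its relative PLOD2 had 24.8, 68.8 and 178 FPKM. COLGALT1, which adds galactose to hydroxylysine, had 14.0, 60.3 and 82.7 FPKM. TLL2, a protease of the tolloid family, had 10.5, 59.3 and 179 FPKM. FKBP10, a prolyl isomerase of collagen folding, was the lowest of the 6 with 4.77, 22.2 and 55.2 FPKM. None of the 6 had an oocyte above its outerCC median.

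Of 23 listed collagen modification genes 12 were tested, and 10 were higher, 1 lower and 1 not called in outerCC against the oocyte. Among the 6 that were not members, 4 were higher. PLOD3, no member because 7 innerCC libraries passed 0.5 FPKM, was higher by 4.30 ± 0.25 (log2). BMP1, the procollagen C-proteinase, was higher by 2.39 ± 0.16. P4HA3, a subunit of prolyl hydroxylase, was lower (-4.01 ± 0.21) and passed 0.5 FPKM in all 16 oocytes.

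Matrix and basement membrane gave HAPLN3, CCDC80, TIMP1 and HPSE. HAPLN3, a link protein that ties hyaluronan to proteoglycans, had 7.04, 23.6 and 96.0 FPKM in outerCC. CCDC80, a secreted matrix protein, had 1.95, 27.4 and 109 FPKM. HPSE, the enzyme that cuts heparan sulfate, had 2.60, 18.1 and 54.8 FPKM. TIMP1, an inhibitor of matrix metalloproteinases, had 3.41, 7.81 and 233 FPKM, so a single library raised its mean over the threshold. That library was the outerCC of COC 192, and the highest of the other 15 was 25.6 FPKM. Of 21 tested genes of this list 17 were higher, 3 lower and 1 not called in outerCC against the oocyte. MXRA8 was higher by 3.88 ± 0.35 (log2).

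Of 17 listed genes of cumulus expansion 6 could be matched, and none of these 6 was a member. Of the 6, 4 were higher and 2 lower in outerCC. EGFR, the receptor of the expansion signal, was higher by 3.30 ± 0.21 and passed 0.5 FPKM in 9 oocytes. HAS2, the hyaluronan synthase, was lower (-3.40 ± 0.26), with an outerCC median of 0.172 FPKM and an oocyte median of 16.5 FPKM.

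Immediate early genes, which are switched on quickly by growth factors and stress, gave 5 members. CYR61, a matricellular protein, had 78.8, 325 and 1214 FPKM in outerCC and 43.1, 97.2 and 198 FPKM in innerCC. MYC had 32.8, 69.5 and 618 FPKM in outerCC. The repressor BHLHE40 had 6.77, 43.8 and 389 FPKM, and the zinc-finger factor KLF6 had 11.7, 32.8 and 91.9 FPKM. FOSB, a partner of JUN in the AP-1 dimer, had 7.85, 30.0 and 90.1 FPKM. The highest outerCC was COC 192 for CYR61 and MYC, COC 187 for BHLHE40 and COC 176 for KLF6 and FOSB. Of 14 tested genes of this list 13 were higher in outerCC than in the oocyte and none was lower. FOS was higher by 8.67 ± 0.50 and JUN by 6.82 ± 0.32 (log2), and both passed 0.5 FPKM in too many oocytes to be members, 10 and 12. FOS was also 1 of the 7 identifiers left out by name. KLF4 was not called (-0.83 ± 0.36, adjusted p = 0.0308 by limma).

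Secreted factors and receptors gave IHH, ANGPT2, IGFBP4 and ROR2. IHH, the hedgehog ligand that granulosa cells send to the theca, had 17.4, 176 and 433 FPKM in outerCC and 19.2, 119 and 244 FPKM in innerCC. Its highest oocyte, COC 191, was at 16.0 FPKM, just below its lowest outerCC. IGFBP4, which binds insulin-like growth factors, had 1.12, 22.1 and 65.6 FPKM in outerCC, lowest in COC 192. ANGPT2, an angiopoietin, had 12, 40.5 and 80.0 FPKM, and the Wnt receptor ROR2 had 6.32, 35.5 and 95.9 FPKM. Of 15 tested genes of this list 11 were higher and 3 lower in outerCC against the oocyte. The hedgehog transducer SMO was higher by 2.71 ± 0.18, and the hedgehog binding protein HHIP was lower (-4.44 ± 0.20).

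Metabolism and protection were led by metallothionein and transferases. MT1E, which binds zinc and copper, was the member of highest mean outerCC level and had 41.2, 205 and 1471 FPKM in outerCC. Its innerCC levels were 7.69, 98.9 and 543 FPKM, and its oocytes had a median of 0 and a maximum of 9.16 FPKM. MT1E has close relatives whose fragments may have been divided among them, and another identifier with the symbol MT1E was no member. MT1A, left out by name, was higher by 4.79 ± 0.48 (log2). PTGR1, a reductase of prostaglandins, had 19.3, 172 and 381 FPKM in outerCC, and its highest oocyte of 24.9 FPKM overlapped that range. GSTA2, a glutathione transferase with close relatives, had 15.6, 98.7 and 283 FPKM in outerCC and passed 0.5 FPKM in 7 oocytes. Of 9 tested genes of this list 7 were higher and 1 lower in outerCC.

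Glycolysis gave the phosphofructokinases PFKL and PFKP. PFKL had 17.0, 88.1 and 245 FPKM in outerCC and PFKP had 9.04, 31.9 and 115 FPKM. Of 10 tested glycolysis genes 8 were higher and 1 lower in outerCC. ALDOA, the aldolase, was higher by 5.36 ± 0.41 (log2) and was found in all 16 oocytes. In amino acid supply, the transporter SLC38A2 had 35.6, 87.5 and 158 FPKM in outerCC and GPT, the alanine aminotransferase, had 4.62, 63.5 and 220 FPKM. Of 8 tested genes of amino acid supply 5 were higher and 3 lower. SLC1A5, another transporter, was lower (-3.40 ± 0.26), with an oocyte median of 39.7 FPKM.

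Class I antigen presentation and interferon response gave IFI6, BOLA, LGALS3BP and LGALS9. IFI6, an interferon-induced mitochondrial protein, had 9.14, 30.7 and 489 FPKM in outerCC, highest in COC 180 and next in COC 185 with 215 FPKM. BOLA, a class I heavy chain from a family of near-identical copies, had 5.69, 67.4 and 170 FPKM. The galectin ligand LGALS3BP had 19.3, 54.4 and 112 FPKM and the galectin LGALS9 had 5.32, 30.5 and 47.8 FPKM. Of 14 tested genes of this list 10 were higher, 2 lower and 2 not called. In adhesion, JAM2 had 10.2, 35.1 and 58.5 FPKM and MCAM had 5.68, 18.7 and 33.4 FPKM in outerCC, and 6 of 10 tested genes were higher and 3 lower. Under 75th percentile scaling the counts of each list moved by at most 1.

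The lists can be set beside all genes, of which 34.3% were higher and the median log2 difference was -0.25. That median was 4.28 for collagen modification, 4.53 for immediate early genes, 2.87 for matrix, 2.79 for glutathione and metallothionein and 2.74 for class I and interferon genes. It was 2.53 for amino acid supply, 2.43 for secreted factors and receptors, 2.33 for glycolysis, 1.62 for cumulus expansion and 1.50 for adhesion. These lists hold members that the rule chose for a low oocyte level, and their matches depend on the study's supplementary tables. The counts of higher genes include those members. Among tested non-members, 13 of 17 matrix, 8 of 9 immediate early, 7 of 11 secreted factor and receptor and 4 of 6 glutathione and metallothionein genes were higher. So were 6 of 8 glycolysis, 3 of 6 amino acid supply, 6 of 10 class I and interferon and 4 of 8 adhesion genes. Nothing particular to a list is read from the counts or the medians.

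The leading members included 2 more genes outside the lists. C11H2orf40 had 64.1, 261 and 724 FPKM in outerCC and KRT2, a keratin with close relatives, had 8.17, 253 and 603 FPKM. The lowest KRT2 library was outerCC 192, below its highest oocyte of 27.6 FPKM, and the other 15 started at 27.4 FPKM. Of the 167 members 94 had no symbol in the sources used.

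**Figure D3:**
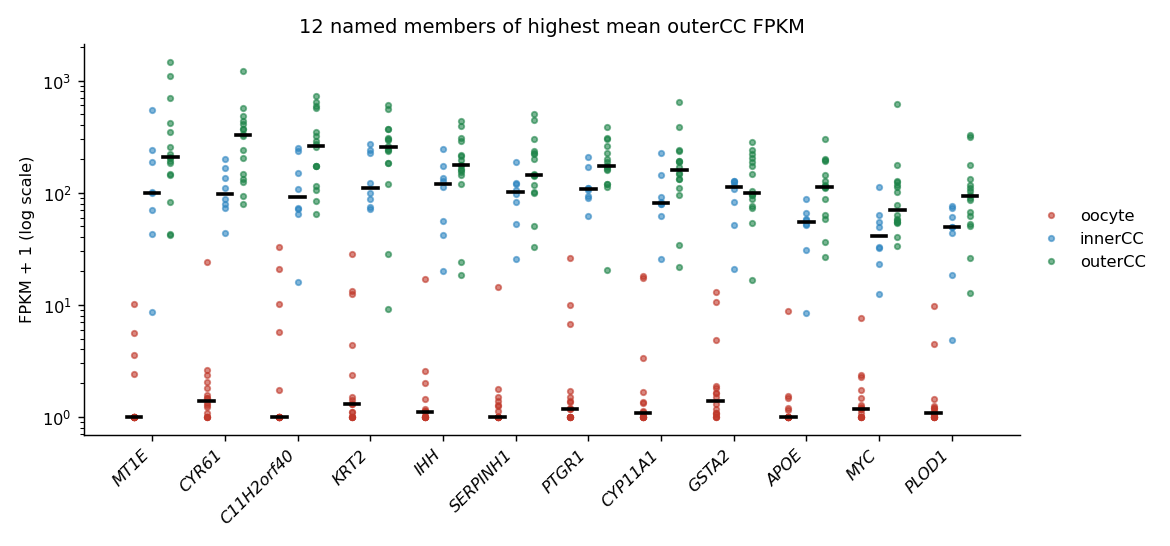
FPKM + 1 (log axis) of the 12 members of highest mean outerCC level that have a symbol, 1 point per library for outerCC and oocyte (16 each) and innerCC (COCs 185 to 192), with bars at the medians. OuterCC medians ran from 69.5 FPKM for MYC to 325 FPKM for CYR61, and oocyte medians were all below 0.5 FPKM.

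In the innerCC most members had lower levels than in the outerCC of the same COC. Over COCs 185 to 192 the ratio of mean innerCC to mean outerCC had a median of 0.456 across members and 0.534 across all 6076 genes found in both layers. Of the members, 79 (47.3%) were lower in innerCC in 8 of 8 COCs, against 26.2% of all such genes, and the ranges of 7 members did not overlap, against 1.73%. The rule set a minimum mean level for outerCC alone, which the 6076 genes did not have to meet. A lower level of members in innerCC than in outerCC can follow from that choice. In single COCs the median ratio of the members ran from 0.127 in COC 192 to 0.786 in COC 191. The order of COCs was much the same for all genes, from 0.172 in COC 192 to 0.946 in COC 190. Without COCs 190 and 191, the ratio of means had a median of 0.370 across members and 0.455 across all such genes. With limma, 162 members were lower in innerCC when all 16 COCs entered, against 77.4% of all genes, and 3 were lower in COCs 185 to 192, against 1.53%. That fit of 8 against 8 libraries did not pair the layers. With the COC as a block 0 members and 0 genes were called in COCs 185 to 192, although 129 members and 6729 genes were lower at an unadjusted p under 0.05. Without COCs 190 and 191 the unpaired fit called 1 member, against 0.354% of genes. With the number of genes above 0.5 FPKM of each library as a covariate, 0 members and 4 genes (0.0322%) were lower, with 20 members (12%) and 14.9% of genes lower at an unadjusted p under 0.05. With the COC as a block over all 16 COCs, 4 genes (0.0322%) were higher in innerCC in place of 0, none of them a member.

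The strongest leaning to the outer layer rested partly on outerCC 192. TIMP1 had an inner to outer ratio of 0.0965 over COCs 185 to 192 and of 0.403 without COC 192. LTF, the iron-binding lactotransferrin, had 0.170 with and 0.401 without that COC, and its outerCC level there was 209 FPKM against at most 58.0 FPKM elsewhere. FKBP10 had 0.219 with and 0.258 without it. MYC went from 0.306 to 0.602 and CYR61 from 0.299 to 0.482 when COC 192 was left out. Only 4 members had a ratio above 1, led by ENSBTAG00000046532 (4.13) and ENSBTAG00000047470 (3.79), and both of these were listed at 0 in at least 1 outerCC.

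Whether a member's level followed the COC in both layers was tested over COCs 185 to 192 with an exact permutation of COC numbers. None of 6076 genes was called (lowest Benjamini-Hochberg adjusted p = 0.377), with 409 genes (6.73%) and 29 members (17.4%) at an unadjusted p under 0.05. The smallest p this exact permutation could give, 2.48e-05, was too large for a single gene to be called over 6076 genes. Nothing is therefore read from the absence of calls, here or in the other versions with 8 COCs. The Spearman version called none either, with 310 genes (5.1%) and 17 members at an unadjusted p under 0.05, and the median Pearson r was 0.288 for members and 0.212 for all genes. Under 75th percentile scaling none was called (lowest adjusted p = 0.1), with 873 genes (14.4%) and 50 members at an unadjusted p under 0.05 and a median r of 0.516 for members and 0.375 for all genes. Without COCs 190 and 191 none was called (lowest adjusted p = 0.767), with 359 genes (5.91%) and 24 members at an unadjusted p under 0.05. That permutation had few orders, and the lowest p it gave a member was 0.00139, for PDZK1IP1. It could hardly reach an adjusted p under 0.05 over 6076 genes, so nothing is read from the absence of calls. PDZK1IP1, a small membrane protein, had r = 0.967 (n = 8, exact permutation p = 0.00164, adjusted p = 0.643). Its rank correlation was 0.855 (exact permutation p = 0.0108), and r without the 2 COCs farthest from the median was 0.927.

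PDZK1IP1 was listed at 0 in both layers of COCs 185 and 191 and in outerCC 181, while its other outerCC levels ran from 5.51 to 294 FPKM. IFI6 had r = 0.916 (n = 8, exact permutation p = 0.00119, adjusted p = 0.643) with a rank correlation of 0.833 (exact permutation p = 0.0154), and 0.671 remained of r without the 2 farthest COCs. Its high level in COC 185 appeared in both layers, 125 FPKM in innerCC and 215 FPKM in outerCC. GPT had r = 0.911 (n = 8, exact permutation p = 0.00851, adjusted p = 0.652), which came down to 0.462 without its 2 farthest COCs. Its rank correlation was 0.548 (exact permutation p = 0.171). CYP11A1 had r = 0.861 (n = 8, exact permutation p = 0.0198, adjusted p = 0.662) but -0.0841 without its 2 farthest COCs, so the relation rested on them. Its rank correlation was 0.405 (exact permutation p = 0.327). SLC38A2 leaned the other way, with r = -0.672 (n = 8, exact permutation p = 0.0549, adjusted p = 0.739). Its rank correlation was -0.619 (exact permutation p = 0.115), and under scaling its r was 0.192. The scaled r was 0.983 for PDZK1IP1, 0.964 for IFI6, 0.989 for GPT and 0.924 for CYP11A1, each with an adjusted p of 0.1 by exact permutation.

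**Figure D4:**
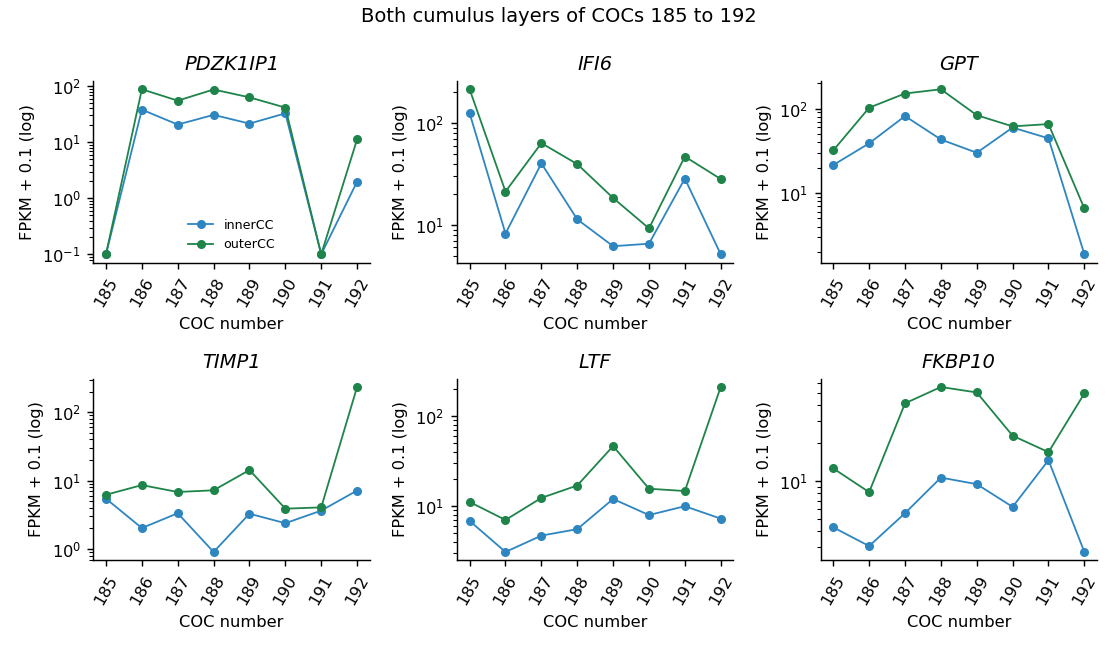
FPKM + 0.1 (log axis) of PDZK1IP1, IFI6, GPT, TIMP1, LTF and FKBP10 in innerCC and outerCC of COCs 185 to 192 (horizontal axis). PDZK1IP1 was at 0 in both layers of COCs 185 and 191, IFI6 peaked in both layers of COC 185, and TIMP1 and LTF peaked in outerCC 192 alone (233 and 209 FPKM).

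The levels of members spread widely between outerCC libraries. The SD of log2(FPKM + 1) across the 16 outerCC had a median of 0.94 over members, 0.69 over the 10459 genes found in outerCC and 0.76 over the 2642 of these with a mean of at least 20 FPKM. The steadiest named member was IKBIP (0.58) and the most variable was PDZK1IP1 (2.80). OuterCC 180 held the lowest level of 100 members (59.9%) and of 51.3% of all genes, and its 75th percentile of 4.06 FPKM was the lowest of the 16. OuterCC 187 held the highest level of 45 members (26.9%) and of 13.1% of all genes. OuterCC 176 held the highest level of 35 members (21.0%) and of 16.5% of all genes. OuterCC 192 held the highest level of 34 members (20.4%) and of 17.8% of all genes.

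OuterCC 192 was the highest or lowest library for several named members. It was highest for CYR61 (1214 FPKM), MYC (618 FPKM), TIMP1 (233 FPKM), LTF (209 FPKM), CCDC80 (109 FPKM) and HAPLN3 (96.0 FPKM). It was lowest for KRT2 (8.17 FPKM) and IGFBP4 (1.12 FPKM). CYP11A1 stood at 33.5 FPKM there. The non-member CYP19A1 and INHBA, an activin subunit left out by name, stood at 0.773 and 22.0 FPKM. Theca markers summed to 17.5 FPKM in this library (1 of 2 above 0.5 FPKM), against at most 4.15 FPKM in the other 15. Fibroblast markers summed to 81.8 FPKM, below the 89.3 FPKM of outerCC 177. The part of both marker sets in these values was not tested. The innerCC of COC 192 had KRT2 at 70.0 FPKM and TIMP1 at 7.06 FPKM, and it had the fewest genes of the later set (5876).

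Which genes followed CYP11A1 across the 16 outerCC was tested by the slope of each gene on CYP11A1, both as log2(FPKM + 1). As deposited, 93 of 166 other members (56.0%) rose with CYP11A1 and 3 fell, against 28.1% and 0.249% of 10458 genes (limma, adjusted p under 0.05). After 75th percentile scaling 14 members (8.43%) rose and 4 fell, against 1.27% and 0.736% of genes. As deposited 19 members rose and 0 fell without COC 180, against 1.85% and 0.0382% of genes. Under scaling 0 members rose without COC 192, against 0.0287% of genes.

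IGFBP4 rose by 1.06 ± 0.12 for each log2 unit of CYP11A1 (SE, limma adjusted p = 9.84e-06) and by 1.20 ± 0.15 under scaling (adjusted p = 0.000689). GPT rose by 1.19 ± 0.13 (limma adjusted p = 6.77e-06) and by 1.13 ± 0.17 under scaling (adjusted p = 0.00219). IHH rose by 0.96 ± 0.13 (limma adjusted p = 6.08e-05) and by 0.98 ± 0.16 under scaling, where the slope was 0.60 without COC 192. KRT2 rose by 1.17 ± 0.15, though its scaled slope went from 1.40 to 0.62 when COC 192 was left out. HSD3B, the next enzyme of the pathway, rose by 0.76 ± 0.12 (limma adjusted p = 0.000251) and by 0.74 ± 0.15 under scaling (adjusted p = 0.0144). These 5 were called without each COC in turn as deposited, and in 15 of 16 cases under scaling, the exception being COC 192.

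The positive slopes had the same sign within each set of COCs. The scaled slope of IGFBP4 was 1.43 in the earlier set (COCs 176 to 184) and 1.17 in the later set, and that of GPT was 1.25 and 1.13. The scaled slope of IHH was 1.15 and 0.91, and that of HSD3B was 0.69 and 0.74. In the innerCC of COCs 185 to 192 the scaled slopes were 0.84 for IGFBP4, 1.57 for GPT, 1.06 for IHH and 0.66 for HSD3B, with no test. The later set and these innerCC slopes include COC 192, without which the scaled calls were lost. Slopes of the later set without that COC were not computed.

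TIMP1 went down as CYP11A1 went up, by -0.64 ± 0.22 per log2 unit (limma adjusted p = 0.0397, called in 11 of 16 cases with a COC left out) and by -1.33 ± 0.25 under scaling (adjusted p = 0.00983). Without COC 192 the slope was -0.21 as deposited (adjusted p = 0.287) and -1.03 under scaling (adjusted p = 0.643). MYC fell under scaling only (-0.86 ± 0.19, limma adjusted p = 0.0224, against -0.27 and 0.246 as deposited), as did LTF (-1.03 ± 0.25, adjusted p = 0.0396). Both calls were lost without COC 192 and without COC 180, and that of LTF also without COC 176, 178, 181 or 187. APOE rose as deposited (0.43 ± 0.16, limma adjusted p = 0.0475, called in 4 of 16 cases with a COC left out) and had a scaled slope of 0.02. GATA6 was not called on either scale. Of 11 tested genes of the steroid list 6 rose as deposited and 2 under scaling.

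**Figure D5:**
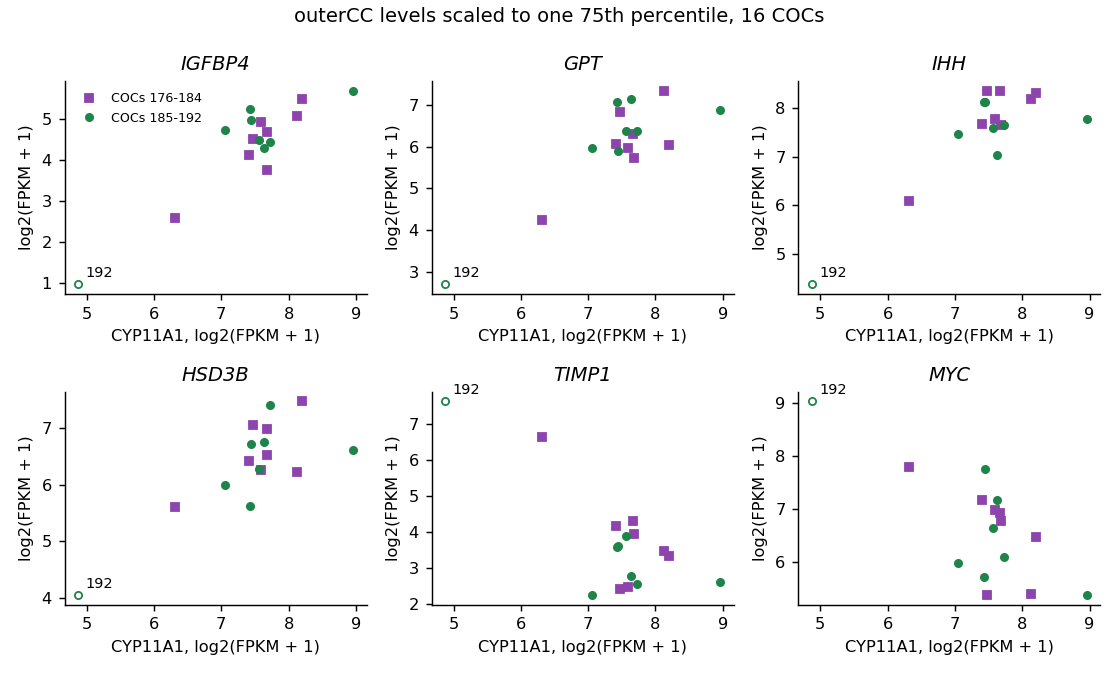
Scaled outerCC log2(FPKM + 1) of IGFBP4, GPT, IHH, HSD3B, TIMP1 and MYC (vertical axes) against that of CYP11A1 (horizontal axes), 1 point per COC. Squares are COCs 176 to 184, circles COCs 185 to 192 and the open circle COC 192, which lies at the low end of CYP11A1 and extends each slope, from 1.20 for IGFBP4 to -1.33 for TIMP1.

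SERPINH1 was followed by most genes as deposited. Of 166 other members 127 (76.5%) rose with it and 1 fell, against 67.6% and 0.306% of 10458 genes, and 9 of 10 tested genes of the collagen list rose. Under scaling 9 members (5.42%) rose and 1 fell, against 0.889% and 0.583% of genes. PLOD1 rose by 1.09 ± 0.11 (limma adjusted p = 3.85e-06) and by 1.20 ± 0.19 under scaling (adjusted p = 0.00733), a call lost without COC 188 (adjusted p = 0.0652). TLL2 rose by 0.99 ± 0.12 (limma adjusted p = 8.24e-06) and by 0.95 ± 0.21 under scaling (adjusted p = 0.0325, lost without any of 5 COCs). PLOD2, COLGALT1 and FKBP10 rose as deposited, by 0.66, 0.67 and 0.83, and had scaled adjusted p of 0.384, 0.470 and 0.201. Under scaling with a term for the set of COCs no gene was called.

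FOSB was followed by few genes. KLF6 rose by 0.82 ± 0.16 (limma adjusted p = 0.0333) and by 0.70 ± 0.12 under scaling (adjusted p = 0.0139). The call of KLF6 held in 8 of 16 cases with a COC left out as deposited, and under scaling it was lost without COC 190 (adjusted p = 0.0831). ENSBTAG00000013929 was the other of 2 members (1.20%) that rose, against 0.143% of genes. Under scaling 3 members rose and 0 fell, against 1.06% and 0.115% of genes. CYR61, MYC and BHLHE40 were not called, with slopes of 0.61 ± 0.22, 0.14 ± 0.25 and -0.36 ± 0.34. With a term for the set of COCs no gene was called, and the slope of BHLHE40 became 0.47. Without COCs 190 and 191, whose outerCC held oocyte markers, 0 members were called, against 0.0287% of genes.

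For the oocyte factors, each outerCC gene was fitted against the oocyte of its own COC. For GDF9 no gene was called by limma, with 3.93% of genes and 17 members (10.2%) rising and 0.268% of genes and 0 members falling at an unadjusted p under 0.05. The members with a positive slope at that p were 9 without COC 177 and 9 without COC 180, against 1.37% and 1.77% of genes, and 29 without COC 188, against 6.02%. Under scaling none was called and 13 members had a positive slope at an unadjusted p under 0.05, against 5.1% of genes. IHH had a slope of 1.53 on GDF9 (unadjusted p = 0.0088, adjusted p = 0.94). For BMP15 no gene was called either, with 7.52% of genes and 37 members (22.2%) rising and 0.287% of genes and 3 members falling at an unadjusted p under 0.05. That count rested on single COCs: it was 1 member without COC 180, against 0.354% of genes, and 87 members without COC 181, against 30.5%. Under scaling none was called and 16 members had a positive slope at an unadjusted p under 0.05, against 3.48% of genes. S100A1, a calcium-binding protein, had a slope of 0.67 on BMP15 (limma unadjusted p = 0.0023, adjusted p = 0.48).

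The number of genes above 0.5 FPKM in a library, a measure of its complexity, also moved with the members. As deposited 69 members (41.3%) rose with it, against 51.5% of genes. After scaling 0 members rose and 1, MT1E, fell, against 2.09% and 0.105% of genes. That call lay at the threshold (limma adjusted p = 0.04999). The other MT1E identifier also had a negative slope and was not called (limma adjusted p = 0.0561).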

How the data were processed

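Single COCs were separated with trypsin into outerCC, innerCC and oocyte, and SMART-seq2 libraries were sequenced. The authors aligned the reads to UMD3.1 with STAR 2.5.2, removed duplicates with Picard 2.5, and deposited FPKM values made with Cufflinks 2.2.1. FPKM do not hold fragment counts, so depth per library was judged by the number of genes above 0.5 FPKM (648 to 11851). An FPKM of 0 may be a failed estimate.

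Values were tested as log2(FPKM + 1), which understates changes of low genes, with limma 3.58.1 in R 4.3.3 (two-sided, Benjamini-Hochberg over all genes). Contrasts were called at 0.01 over 12428 genes and slopes at 0.05 over 10459 genes, or 10458 where an index gene was left out. Correlations between layers were tested by exact permutation (40320 orders, smallest p 2.48e-05). Samples with the same COC number come from the same COC per the labels and are therefore paired, and fits with and without that block were made. On simulated data at 10459 genes a contrast of 16 against 16 libraries recovered 98.0% of 200 genes changed by 2 log2 units. A slope over 16 libraries recovered 91.5% of 200 genes changed by 1 log2 unit per SD. In the real data 67.6% of genes rose with SERPINH1 as deposited and 0.889% after scaling. Recovery under shifts shared by most genes of a library, or with fewer libraries, was not tested. These rates are therefore no measure of power for the fits reported here.

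The members and lists were chosen with earlier results of these data known. Lists covered steroid and cholesterol, collagen modification, matrix, cumulus expansion, immediate early, glycolysis, amino acid, glutathione and metallothionein, class I and interferon, adhesion and growth factor genes, and markers of granulosa, oocyte, theca, endothelial, leukocyte, fibroblast and erythroid cells. Named genes were the 12 members of highest outerCC mean with a symbol, up to 5 members and 5 other genes per list by outerCC mean, the genes nearest the threshold, the extremes of the ratio between layers, of the spread and of the correlation, and the members of lowest p per slope. Further members were named after their values were seen. Symbols came from the study's supplementary tables for 73 members. The study's collection batch of each COC is not given in the sources used here, so batch was not fitted. Alternatives were a pseudocount of 0.1, no filter, 75th percentile scaling, the number of genes as covariate, sets of COCs, and each COC left out.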

Additional observations from a re-analysis of the deposited data

How the results depend on the processing

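The choice of members depended on its limits. Requiring 4 or more libraries and fewer than 4 oocytes gave 96 genes, 12 or more libraries gave 21, and 0 oocytes gave 0. Leaving out 1 COC gave 124 (without COC 189) to 188 (without COC 181). For innerCC against outerCC, the COC block gave 4 genes higher in place of 0 and scaling gave 15, while 4 genes and 0 members were lower with the number of genes as covariate and 190 genes and 3 members in COCs 185 to 192. In those COCs the block left 0 genes and 0 members, and leaving out COCs 190 and 191 left 44 genes and 1 member. The replicate block changed no other count by more than 1.5 times. Terms for the set of COCs, the block within COCs 185 to 192, scaled fits on GDF9 and BMP15, and fits or correlations without COCs 190 and 191 or 178, 181 and 191 were chosen after seeing the data.

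Genes rising with CYP11A1 went from 2939 to 1747 with the number of genes as covariate, 133 under scaling and 176 under scaling with a set term. Falling genes went from 26 to 79 without a filter, 74, 77 and 101 under the same 3 settings. Members rising were 14 under scaling and 23 with the set term as well, and members falling 0 without a filter and 5. Leaving out each COC gave 193 to 6996 rising and 4 to 47 falling genes and 19 to 128 rising and 0 to 4 falling members as deposited, with the lowest counts without COC 180. Under scaling it gave 3 to 197 rising and 0 to 133 falling genes and 0 to 17 rising and 0 to 5 falling members, lowest without COC 192.

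For SERPINH1 scaling gave 93 rising and 61 falling genes with 9 rising members, and scaling with the set term gave 0 of each. Falling genes were 426 without a filter and 62 with the number of genes, and falling members 2 with a set term. Leaving out each COC gave 4554 to 7239 rising and 17 to 45 falling genes and 97 to 130 rising and 0 to 2 falling members, and under scaling 1 (without COC 188) to 167, 1 to 138, 1 to 12 and 0 to 3.

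For FOSB a pseudocount of 0.1 gave 2 rising genes and 0 members, no filter 1 member, a set term 0 and 0 on both scales, leaving out COCs 190 and 191 3 genes and 0 members, and scaling 111 rising and 12 falling genes. Leaving out each COC gave 2 to 35 rising genes and 0 to 3 members, and under scaling 5 (without COC 190) to 236 rising and 1 to 66 falling genes with 0 to 5 members in each direction. For GDF9 a pseudocount of 0.1 gave 1 gene. For the number of genes, scaling gave 219 rising and 11 falling genes and 0 rising members. The cause of these changes was not tested.

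Some slopes changed sign. GATA6 on CYP11A1 went to -0.11 under scaling, -0.13 with the set term as well, and with each COC left out ranged from 0.07 to 0.33 as deposited and from -0.33 to -0.05 under scaling. APOE ranged from 0.24 to 0.68 as deposited and from -0.029 (without COC 176) to 0.32 under scaling. MYC on CYP11A1 ranged from -0.58 to 0.048 (without COC 192) as deposited and from -0.90 to -0.78 under scaling. MYC on FOSB ranged from -0.028 (without COC 192) to 0.35 as deposited and from 0.10 to 0.38 under scaling, and BHLHE40 on FOSB became 0.47 with a set term and 0.24 under scaling with it. The contrast of outerCC against oocyte kept 167 members higher under each alternative but the fits to either set of 8 COCs, which kept 166. The rule itself used that contrast, so these counts are a description and no check of the processing. Without fragment counts, differences near 0.5 FPKM could not be judged against counting error.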
